A study of Rattus norvegicus with 2 samples.

Results

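The genes described here encode the proteins of the mitochondrial ribosome and the machinery that brings proteins into mitochondria, in the cardiac outflow tract (OFT) of the rat embryo. Members were taken by gene symbol alone, namely every Mrpl, Mrps, Timm and Tomm gene of the count table with a number in its symbol, plus Romo1 and Nsun4. This gave 99 of the 37203 genes of the table, with 44 Mrpl, 29 Mrps, 14 Timm and 10 Tomm genes. The study asked how loss of sorting nexin 17, an adaptor that returns membrane proteins from endosomes to the cell surface, affects the OFT, the vessel that later divides into aorta and pulmonary artery. HO embryos were homozygous for a constitutive, CRISPR/Cas9-made Snx17 knockout on the Sprague-Dawley background (genotype Snx17-/-), and WT embryos were wild type. The paper genotyped offspring of heterozygote crosses and does not say separately where the sequenced WT embryos came from. RNA was sequenced from OFTs at E13.5 in 1 HO library and 1 WT library, each from a pool of 10 OFTs. With 1 pool a genotype the spread within a genotype is unknown, and tests with p-values were not run.

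Mitochondria keep a small genome of their own, and its messages are read by a separate ribosome with a large and a small subunit. The RNA of that ribosome is made inside the organelle, but all of its proteins are encoded in the nucleus, made in the cytosol and imported. Imported proteins are recognised by receptors and pass a channel in the outer membrane (the TOM complex). Many then reach the translocases of the inner membrane (the TIM complexes), and small chaperones escort hydrophobic ones between the membranes. Heart muscle is rich in mitochondria, and these genes are active in almost every cell.

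The HO library holds 9528615 counted reads and the WT library 9321811, and the count columns are headed with stage E11_5, whereas the sample labels give E13.5. Snx17, the targeted gene, had 994 counts in the HO library and 1365 in the WT library, a log2 fold of −0.47 (interval −0.59 to −0.35). This is a count over the whole gene, in which the deleted stretch is not seen separately. The heart was well represented, as the 6 cardiomyocyte markers looked at together had a summed level of 8659 RPKM in HO and 7528 in WT. RPKM are reads scaled by gene length and by library total. All 6 had an interval above 1 with a median log2 fold of 0.14. The lowest was Tnni1 with 0.05 (interval 0.02 to 0.07), which is small enough to depend on how the libraries were scaled. All 4 epicardial markers had an interval below 1, with summed levels of 67.3 RPKM in HO and 107.7 in WT. Markers of endothelial, smooth muscle, cushion mesenchyme and erythroid cells and of neurons summed to between 40.0 and 1733 RPKM in HO and between 35.1 and 1601 in WT, and those of cushion mesenchyme, smooth muscle and erythroid cells had intervals on both sides of 1. The 5 macrophage markers summed to 10.4 RPKM in HO and 4.79 in WT. The 5 neural crest and glia markers summed to 5.74 RPKM in HO and 7.69 in WT, with a fold of their summed reads of 0.758 (interval 0.622 to 0.922). Of the 3 with enough reads for the rule given in the next paragraph, 1 had an interval below 1 and 2 had intervals that included 1. Of single markers, Csf1r of macrophages (130 counts in HO and 47 in WT) and Alb of hepatocytes (22 in HO and 1 in WT) were called higher, and Tbx18 of the epicardium (541 in HO and 1054 in WT) and Dcx of neurons (3 in HO and 28 in WT) were called lower by the rule given in the next paragraph. Alb and Dcx reached the count minimum of that rule only through the library in which each was higher. Of the 3 hepatocyte markers, 1 had a log2 fold above 0 and 2 did not. Their summed reads were 47 in HO and 38 in WT (fold 1.22, interval 0.78 to 1.93). Of the 4 neuron markers, 2 had a log2 fold above 0 and 2 had an interval below 1. Their summed reads were 1200 in HO and 1169 in WT (fold 1.02, interval 0.94 to 1.10). Of all 47 markers, Foxd3 alone was at 0, in both libraries. Whether such shifts in cell content take part in the values below was not tested, and in bulk tissue fewer cells of a type and less RNA per cell cannot be told apart.

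A fold is the HO count over the WT count after the library sizes were scaled by TMM, the trimmed mean of M-values. The exact 95% interval of a fold reflects the number of reads and leaves out how much embryos, pools or libraries vary. A gene was called higher or lower where the whole interval lay beyond 1.5-fold, and the rule was applied to the 15426 genes whose counts in HO and WT sum to 20 or more. Of the 99 members, 96 reached this minimum. The other 3 were Mrps21l, with 7 counts in each library, Timm8a2, with 0 counts in HO and 1 in WT, and Tomm20l, with no reads in either library, where a count of 0 allows up to 3.

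By this rule 2 of the 96 members, Romo1 and Nsun4, were called higher in the HO library and 1, Timm17b, was called lower. Over all genes tested, 0.771% were called higher and 1.18% lower. Romo1 and Nsun4 were taken into the set by name, with earlier results of these data known, so their calls cannot be weighed against that share. None of the Mrpl, Mrps, Timm and Tomm members was called higher when counted alone. The other 93 members lay closer to equal levels but leaned to one side. Of the 96, 82 had a log2 fold above 0, against 51.4% of all genes tested, and 51 had an interval wholly above 1, against 20.3% of all genes. A single member, Timm17b, had an interval wholly below 1, against 17.0% of all genes. The median log2 fold of the members was 0.28, with the middle part of the distribution running from 0.09 to 0.41 between the quartiles, and the median of all genes tested was 0.01. The reads of all members together summed to 38781 in HO and 32912 in WT, a fold of 1.17 (interval 1.15 to 1.18). The counts of intervals above or below 1 were added after the values had been seen.

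**Figure D1:**
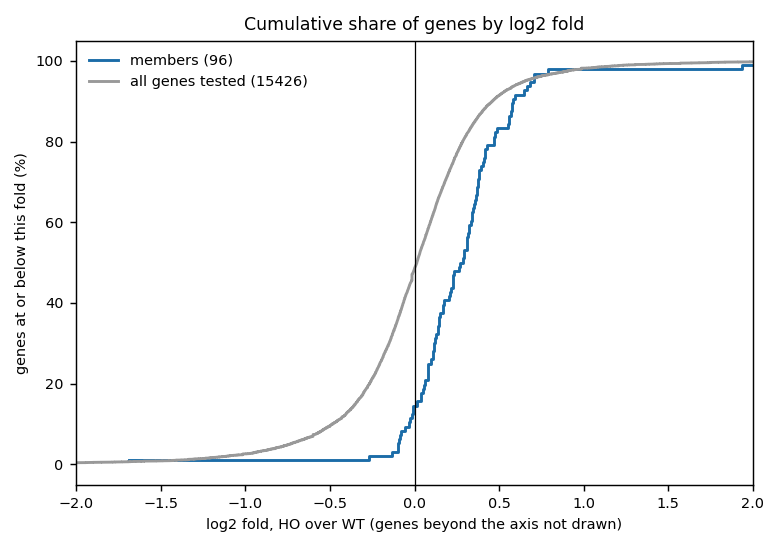
Cumulative share of genes (y axis, percent) at or below a given log2 fold, HO over WT (x axis), for the 96 members (blue) and the 15426 genes tested (grey), with 1 library per genotype. The blue line runs to the right of the grey line over its middle, with medians of 0.28 and 0.01, and the lines meet at both ends.

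Gene length moved with the fold in these libraries. When the genes tested were split into 10 bins by length, the bin of the shortest had a median log2 fold of 0.09 and that of the longest had −0.08. The members are short, with a median of 1064 bases against 2636.5 bases for all genes tested, and 36 of them fell in the shortest bin and 29 in the next. Within these bins the medians of the members were 0.23 and 0.34, against 0.09 and 0.10 for all genes. When the folds were centred by gene length, the median of the members was 0.21 and 44 of them had an interval above 1.

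Per length, the members were expressed well above the typical gene. Their median level was 33.0 RPKM in the HO library and 25.6 in the WT library, whereas the median gene tested had 8.70 RPKM in HO and 8.74 in WT. The highest levels belonged to Mrpl17, a large subunit protein, at 144 RPKM in HO and 131 in WT, and to Tomm6, a small subunit of the outer membrane channel, at 144 RPKM in HO and 135 in WT. Next came Timm13, a chaperone between the membranes, at 126 RPKM in HO and 130.03 in WT. The lowest of those tested were Mrpl1, at 0.87 RPKM in HO and 0.556 in WT, and Nsun4, at 2.83 RPKM in HO and 0.209 in WT. Mrpl36 was also low, at 2.29 RPKM in HO and 1.97 in WT, and these 3 have unnamed copies whose reads are counted apart, as described further on.

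**Figure D2:**
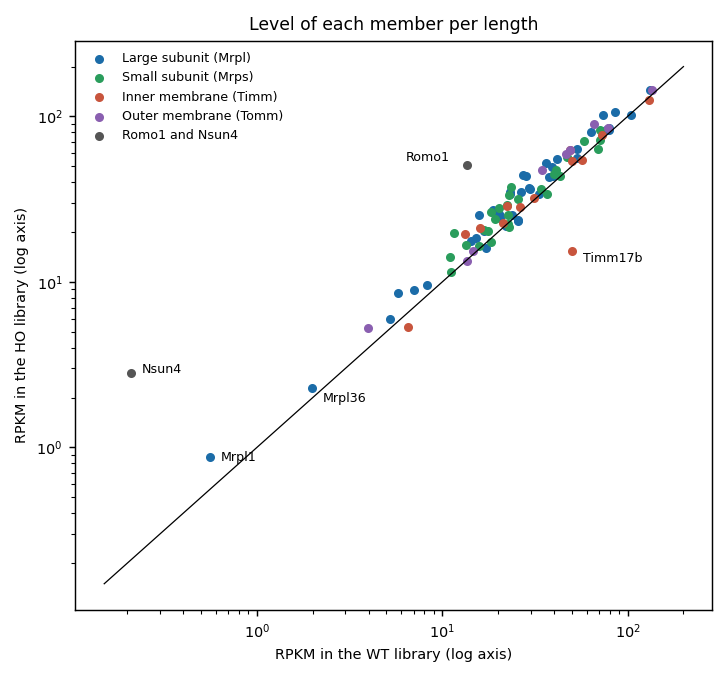
Level of each of the 96 members in the HO library (y axis, RPKM) against the WT library (x axis, RPKM), both on log axes, coloured by subfamily, with the line of equal level. Most points lie close to the line and somewhat above it, and Nsun4 and Romo1 above and Timm17b below stand away from it.

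The large subunit genes made up the largest subfamily. All 44 were tested, none was called in either direction, and 26 had an interval above 1 and none below 1. Their median log2 fold was 0.30 and their reads summed to 18505 in HO and 15240 in WT, a fold of 1.20 (interval 1.18 to 1.23). The 25 proteins numbered up to 36, which mostly have counterparts in the bacterial ribosome, had a summed log2 fold of 0.24 (interval 0.20 to 0.28). The 19 numbered from 37 upwards, which were largely added in mitochondria, had 0.31 (interval 0.26 to 0.36), so the intervals of the groups overlap.

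Counted without their copies, Mrpl42 and Mrpl53 had the highest folds of the large subunit. With copies added the highest was Mrpl36, described with the other copies further on, and Mrpl53 no longer had an interval above 1. Mrpl42 had 282 counts in HO and 171 in WT (log2 fold 0.71, interval 0.43 to 0.99). Mrpl53 had 150 counts in HO and 91 in WT (log2 fold 0.71, interval 0.32 to 1.10). At the other end, Mrpl2, which lies near the site of peptide bond formation, had 219 counts in HO and 238 in WT (log2 fold −0.14, interval −0.41 to 0.14). Mrpl10, part of the stalk that binds translation factors, had 384 counts in HO and 406 in WT (log2 fold −0.10, interval −0.30 to 0.11). Its partner in the stalk, Mrpl12, had 1517 counts in HO and 1070 in WT (log2 fold 0.49, interval 0.37 to 0.60), so the intervals of these neighbours in the ribosome do not overlap. Mrpl12 was singled out after its values were seen. With it, 8 genes (Mrpl12, Mrpl18, Mrpl20, Mrpl39, Mrpl42, Mrpl46, Mrpl53 and Mrpl55) had intervals wholly above the summed log2 fold of the large subunit, 0.26, when counted without copies, and they were likewise picked from their values. Another 8 (Mrpl2, Mrpl4, Mrpl10, Mrpl17, Mrpl27, Mrpl34, Mrpl44 and Mrpl52) had intervals wholly below it. Among these are the large subunit genes with the highest mean level per length over both libraries, as Mrpl17 had 1457 counts in HO and 1302 in WT (log2 fold 0.15, interval 0.04 to 0.26) and Mrpl27 had 670 in HO and 671 in WT (log2 fold −0.02, interval −0.17 to 0.14).

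The small subunit genes leaned the same way. Of 29 members 28 were tested. Among them, Mrps36 is listed by RefSeq as Kgd4, a component of the 2-oxoglutarate dehydrogenase complex, and was kept because its symbol fits the rule. None of the 28 was called, and 14 had an interval above 1 and none below 1. Their median log2 fold was 0.23 and their reads summed to 9877 in HO and 8544 in WT, a fold of 1.14 (interval 1.11 to 1.18). The 15 proteins numbered up to 21 had a summed log2 fold of 0.21 (interval 0.16 to 0.26) and the 13 numbered from 22 upwards had 0.17 (interval 0.11 to 0.24). Without Mrps36, an alternative added after seeing the data, 13 of 27 had an interval above 1, with a median log2 fold of 0.22 and a summed one of 0.19 (interval 0.15 to 0.23). Mrps10 and Mrps28 were highest. Mrps10 had 124 counts in HO and 71 in WT (log2 fold 0.79, interval 0.36 to 1.23), the highest fold among ribosomal protein members counted without copies. Mrps28 had 251 counts in HO and 155 in WT (log2 fold 0.68, interval 0.39 to 0.98). Lowest were Mrps24, with 480 counts in HO and 508 in WT (log2 fold −0.10, interval −0.28 to 0.09), and Mrps2, with 473 in HO and 498 in WT (log2 fold −0.09, interval −0.27 to 0.09). The small subunit genes with the highest levels per length were Mrps18a, at 82.3 RPKM in HO and 70.95 in WT, and Mrps7, at 72.3 RPKM in HO and 71.2 in WT. For Mrps7 the log2 fold was 0.04 (interval −0.12 to 0.20), so no difference was detectable at this depth.

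**Figure D3:**
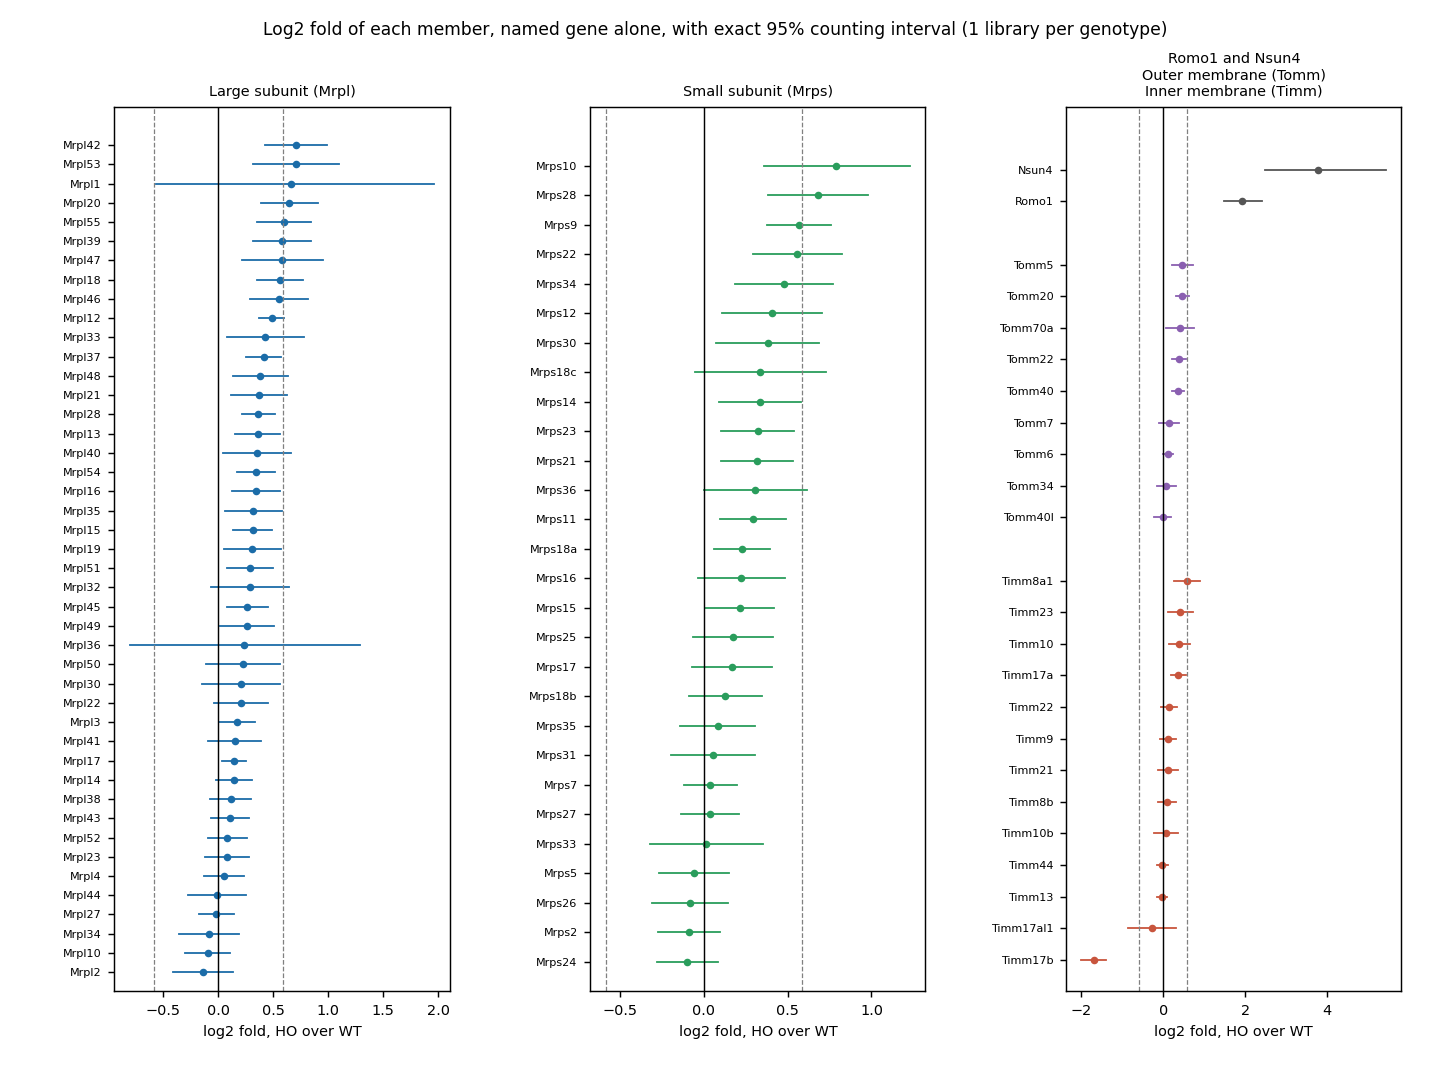
Log2 fold of each of the 96 members, HO over WT (x axis, points), with its exact 95% counting interval (bars), by subfamily and ordered by fold. The solid line marks equal levels and the dashed lines mark 1.5-fold in each direction. Nsun4 and Romo1 lie wholly above the upper dashed line and Timm17b wholly below the lower one.

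By role, the receptors of the outer membrane had the highest summed fold of the import machinery. Tomm20 and Tomm22 receive proteins with a cleavable presequence and Tomm70a receives carriers without one. The 3 receptors had 1671 counts in HO and 1232 in WT together, a fold of 1.34 (interval 1.25 to 1.45), and each of the 3 had an interval above 1. Tomm20 had 838 counts in HO and 600 in WT (log2 fold 0.47, interval 0.31 to 0.62), and no other outer membrane gene had an interval wholly above the summed fold of its subfamily. Tomm5, a small subunit that helps to hold the channel together, had 306 counts in HO and 219 in WT (log2 fold 0.47, interval 0.21 to 0.72). The other small subunits had log2 folds of 0.11 for Tomm6 (1097 counts in HO and 1007 in WT) and 0.14 for Tomm7 (305 counts in HO and 274 in WT), and both intervals included equal levels. Tomm40, which forms the channel, had 908 counts in HO and 696 in WT (log2 fold 0.37, interval 0.22 to 0.51). Its relative Tomm40l had 411 counts in HO and 410 in WT (log2 fold −0.01, interval −0.21 to 0.19). Tomm34, a cytosolic co-chaperone, had 302 counts in HO and 283 in WT (log2 fold 0.08, interval −0.16 to 0.32). Of the 9 outer membrane genes tested 5 had an interval above 1, none was called, and their reads together had a fold of 1.20 (interval 1.15 to 1.25).

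The inner membrane genes were the least uniform. Of 13 tested, 4 had an interval above 1, and 1, Timm17b, was called lower. Their median log2 fold was 0.12, and their summed reads, 5133 in HO and 4951 in WT, had a log2 fold of 0.04 (interval −0.02 to 0.09). The 6 small chaperones of the intermembrane space, which carry hydrophobic proteins between the membranes, had a summed fold of 1.08 (interval 1.02 to 1.15). Among them Timm8a1 was highest, with 217 counts in HO and 144 in WT (log2 fold 0.58, interval 0.27 to 0.89). Timm8b, at 77.4 RPKM in HO and 73.1 in WT, and Timm13, with 967 counts in HO and 977 in WT, had intervals that included equal levels. In the presequence translocase, Timm23 forms the channel together with Timm17a or Timm17b. Timm23 had 220 counts in HO and 163 in WT (log2 fold 0.42, interval 0.12 to 0.72). Timm17a, named beside its paralogue after the values were seen, had 534 counts in HO and 408 in WT (log2 fold 0.37, interval 0.18 to 0.56). Timm17b had 124 counts in HO and 396 in WT, a log2 fold of −1.69 (interval −1.99 to −1.40). Timm17al1, a gene named as a relative of Timm17a, had 47 counts in HO and 56 in WT (log2 fold −0.27, interval −0.86 to 0.32). Timm22, the translocase of carrier proteins, had a log2 fold of 0.14 (interval −0.05 to 0.33). With the reads of copies added, the summed fold of the subfamily was 1.10 (interval 1.06 to 1.14).

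The calls changed once unnamed genes were taken into account. The rat annotation used here holds many genes with a LOC or RGD number in place of a symbol, and 11 of them carry the symbol of a member in the BLAST annotation of the count table. These are called copies here, and 9 members have them. Their sequences were not compared here, and reads of near-identical genes can be split between them in counting, so the values of these 9 members are uncertain when taken alone. Of the 11 copies, 4 had a symbol of their own in RefSeq (GRCr8), namely Mrpl41l1, Mrpl42l1 and the pseudogenes Mrpl42-ps2 and Timm23-ps8.

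Timm17b and its copy LOC100911130 had opposite folds and nearly equal sums. The copy had 386 counts in HO and 111 in WT (log2 fold 1.78). Timm17b took 24.3% of the shared reads in HO (exact Clopper-Pearson interval 20.7 to 28.3) and 78.1% in WT (interval 74.2 to 81.6), while the sum was 510 in HO and 507 in WT (log2 fold −0.01, interval −0.19 to 0.17). Romo1, an inner membrane protein named for its part in reactive oxygen production, had the opposite pattern. Romo1 had 197 counts in HO and 51 in WT (log2 fold 1.93, interval 1.48 to 2.41), and its copy LOC100910944 had 51 in HO and 161 in WT. Romo1 took 79.4% of the shared reads in HO (interval 73.9 to 84.3) and 24.1% in WT (interval 18.5 to 30.4), and together they had a log2 fold of 0.21 (interval −0.06 to 0.48). Mrpl53 was the third such case. Its copy LOC103692169 had 14 counts in HO and 42 in WT (log2 fold −1.60, interval −2.59 to −0.70), and the sum of 164 in HO and 133 in WT had a log2 fold of 0.29 (interval −0.05 to 0.63). In 3 of the 8 members for which both sides reached 20 counts, the named gene and its copy lay on opposite sides of 1. Over the 566 named genes of the table for which both sides reached 20 counts, 13.4% did so.

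In the other 5 of these 8 members the named gene and its copies did not lie on opposite sides of 1 beyond counting error. Timm23 and its copy LOC100362432, listed as Timm23-ps8, both had an interval above 1. Timm23 took 37.6% of their reads in HO and 39.4% in WT, and the sum of 585 in HO and 414 in WT had a log2 fold of 0.48 (interval 0.30 to 0.67). Mrpl42 with its 3 copies had 306 counts in HO and 210 in WT (log2 fold 0.53, interval 0.27 to 0.79). The copies alone had 24 counts in HO and 39 in WT (log2 fold −0.72, interval −1.51 to 0.05). Mrpl42 took 92.2% of the shared reads in HO (interval 88.6 to 94.9) and 81.4% in WT (interval 75.5 to 86.4), so its share was higher in HO. Mrpl41, with 303 counts in HO and 270 in WT alone, had a summed log2 fold of 0.17 (interval −0.06 to 0.40). Mrpl1 had only 16 counts in HO and 10 in WT, and with its copy 38 in HO and 29 in WT (log2 fold 0.37, interval −0.36 to 1.12), so that no difference was detectable at this depth.

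After summing, 2 members were called higher in the HO library, Nsun4 and Mrpl36, and none was called lower, against 0.52% and 0.912% of all genes or groups of copies. Of these 2, Nsun4 was taken into the set by name. Nsun4 methylates the RNA of the small subunit and, bound to Mterf4, guides the assembly of the ribosome. Nsun4 had 69 counts in HO and 5 in WT (log2 fold 3.77, interval 2.48 to 5.44), and its copy LOC103690007 had 6 in HO and 13 in WT. Nsun4 took 92.0% of the shared reads in HO (interval 83.4 to 97.0) and 27.8% in WT (interval 9.69 to 53.5). The sum of 75 in HO and 18 in WT had a log2 fold of 2.04 (interval 1.29 to 2.87), so the difference was smaller than for Nsun4 alone but still beyond 1.5-fold. At the level of the WT library Nsun4 would not have reached the count minimum. Mterf4, listed under its older symbol Mterfd2 and therefore not taken by the rule, had 82 counts in HO and 95 in WT (log2 fold −0.23, interval −0.67 to 0.21). Mrpl36, a short protein of the large subunit, had 19 counts in HO and 16 in WT alone, while its copy LOC100910528 had 52 in HO and 5 in WT (log2 fold 3.36, interval 2.05 to 5.05). The sum of 71 in HO and 21 in WT had a log2 fold of 1.74 (interval 1.02 to 2.52), and this call rests on the reads of the copy. With copies added, 50 of 96 members had an interval above 1, against 20.3% of all genes or groups, and none had one below 1. The median log2 fold was again 0.28.

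**Figure D4:**
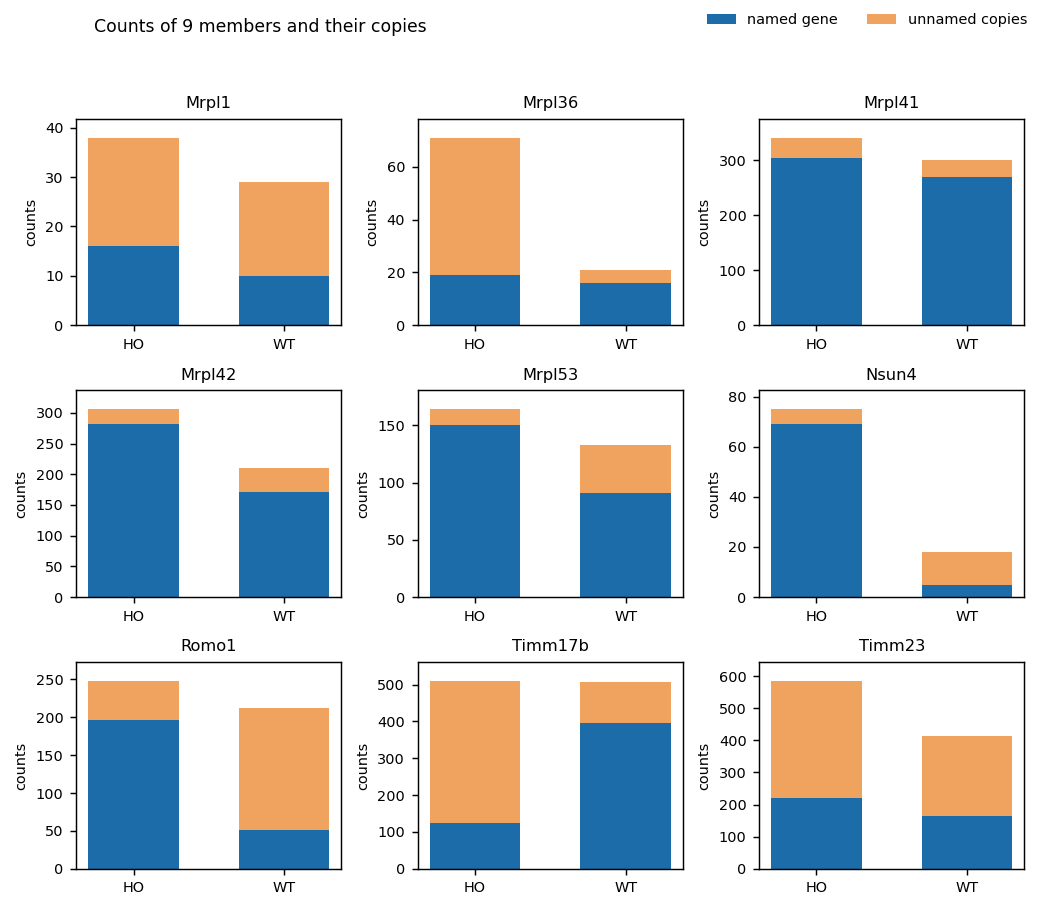
Counts (y axis) of the 9 members with unnamed copies in the HO and WT libraries, with the reads of the named gene in blue and those of its copies stacked in orange. Timm17b and Romo1 show bars of like height with the colours exchanged, whereas the bars of Nsun4 and Mrpl36 differ in height, at 75 counts in HO against 18 in WT and 71 in HO against 21 in WT.

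Other genes that serve the mitochondrial ribosome and import had positive median folds as well. None of the 103 tested in 6 lists was called. Over all genes tested 0.771% were called higher and 1.18% lower, so the absence of calls is near the background share. Of 6 ribosomal proteins with other symbols, 3 had an interval above 1 (median log2 fold 0.23), among them Dap3, a GTP-binding protein of the small subunit, with 1188 counts in HO and 956 in WT (log2 fold 0.30, interval 0.17 to 0.42). Of 21 import partners and processing proteases, 12 had an interval above 1 and none below 1 (median 0.23). Hspa9, the chaperone that pulls proteins through the inner membrane, had 1955 counts in HO and 1646 in WT (log2 fold 0.23, interval 0.14 to 0.33). Of 18 regulators of mitochondrial gene expression, 8 had an interval above 1 and none below 1 (median 0.23). Pprc1, a coactivator of these genes, had 1294 counts in HO and 1213 in WT, with a log2 fold of 0.08.

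The remaining 3 lists had lower medians. Of 23 genes of ribosome assembly and RNA modification, 4 had an interval above 1 and none below 1 (median 0.19), and Dhx30, an RNA helicase of that group, had 1745 counts in HO and 1772 in WT. Of 16 translation factors, 3 had an interval above 1 and 1 below 1 (median 0.09), and Tufm, the elongation factor that delivers charged tRNAs, had 1522 counts in HO and 1454 in WT. Of 19 tRNA synthetases and related enzymes of mitochondria, 3 had an interval above 1 and 1 below 1 (median 0.14), and Tars2, which charges threonine tRNA, had 941 counts in HO and 881 in WT. The background share of genes with an interval above 1 is 20.3%, and the shares of these last 3 lists lie near it. Transcripts of the mitochondrial genome were searched for under 15 symbols and none was found, so they were not analysed here.

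**Figure D5:**
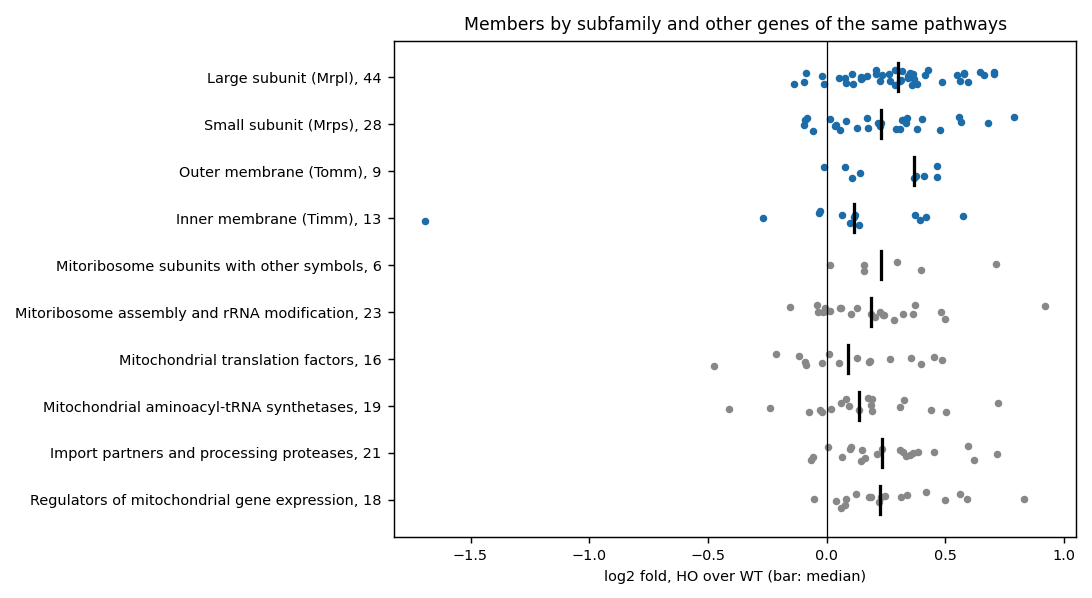
Log2 fold, HO over WT (x axis), of each gene tested in the 4 subfamilies of members (blue points) and in 6 other lists of mitochondrial genes (grey points), with the number tested after each name and a bar at each median. Medians run from 0.09 for the translation factors to 0.37 for the outer membrane genes, and Timm17b is the point farthest to the left.

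Genes of this kind are known to share binding sites for NRF1, for ETS factors such as GABPA and for YY1 in their promoters. RefSeq promoters (GRCr8, 250 bases before to 50 after the start of the gene) were found for 82 of the 99 members and were searched on both strands for GCGCANGCG (NRF1), CCGGAAGT (ETS) and AAGATGGC (YY1), none of which contains another. The NRF1 letters can overlap themselves on opposite strands. They were present in 15 of the 82 promoters (18.3%), against 6.26% of all 27457 promoters of the table and 13.0% of those of the genes tested. The ETS letters were present in 15 (18.3%), against 4.01% and 8.06%, and the YY1 letters in 15 (18.3%), against 3.44% and 5.40%. Among members tested, those with the NRF1 letters had a median log2 fold of 0.15 and those without had 0.29. For ETS these medians were 0.36 and 0.23, and for YY1 they were 0.26 and 0.22. The 250 bases before the start are printed for 5 members to show how these letters lie in genes with high levels or with a named result. Of these, Romo1, Mrpl53 and Mrpl36 have copies, whose promoters are not printed. The call of Mrpl36 rests on the reads of its copy, and with copies added the intervals of Romo1 and Mrpl53 included equal levels. Matches are in capitals and coordinates are in GRCr8.
Romo1, chr3:165119544-165119793, plus strand: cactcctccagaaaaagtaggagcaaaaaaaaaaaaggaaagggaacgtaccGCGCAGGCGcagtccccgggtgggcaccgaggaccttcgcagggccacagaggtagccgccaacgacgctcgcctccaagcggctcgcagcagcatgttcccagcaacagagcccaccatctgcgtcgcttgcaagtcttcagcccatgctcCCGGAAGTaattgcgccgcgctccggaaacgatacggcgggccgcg
Tomm20, chr19:71832421-71832670, minus strand: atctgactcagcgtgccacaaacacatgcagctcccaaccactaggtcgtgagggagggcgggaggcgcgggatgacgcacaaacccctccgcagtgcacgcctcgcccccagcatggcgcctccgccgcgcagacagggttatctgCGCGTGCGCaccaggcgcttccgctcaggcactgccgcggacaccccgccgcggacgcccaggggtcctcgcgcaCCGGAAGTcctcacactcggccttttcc
Mrpl17, chr1:169575700-169575949, minus strand: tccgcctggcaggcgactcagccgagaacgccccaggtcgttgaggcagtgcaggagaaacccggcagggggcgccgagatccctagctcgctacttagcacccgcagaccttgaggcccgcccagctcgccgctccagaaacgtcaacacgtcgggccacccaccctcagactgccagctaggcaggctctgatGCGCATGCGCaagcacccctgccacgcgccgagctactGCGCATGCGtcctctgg
Mrpl53, chr4:117172793-117173042, plus strand: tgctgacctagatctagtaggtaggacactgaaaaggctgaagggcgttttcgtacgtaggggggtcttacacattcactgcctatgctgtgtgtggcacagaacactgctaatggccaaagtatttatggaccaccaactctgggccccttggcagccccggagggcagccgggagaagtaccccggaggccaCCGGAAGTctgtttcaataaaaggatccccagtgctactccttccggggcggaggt
Mrpl36, chr1:31795122-31795371, minus strand: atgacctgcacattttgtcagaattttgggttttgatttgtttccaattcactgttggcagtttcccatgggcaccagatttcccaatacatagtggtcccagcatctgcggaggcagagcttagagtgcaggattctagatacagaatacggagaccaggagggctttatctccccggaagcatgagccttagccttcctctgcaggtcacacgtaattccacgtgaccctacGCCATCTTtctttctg
Romo1 and Tomm20 hold both the NRF1 and the ETS letters, with the ETS match beginning 46 bases before the start in Romo1 and 28 bases before it in Tomm20. Mrpl17 holds the NRF1 letters at 3 places, overlapping on both strands 55 and 54 bases before the start and again 17 bases before it. Mrpl53 holds the ETS letters 56 bases before the start, and Mrpl36 holds the YY1 letters on the opposite strand 16 bases before it. None of the letters was found in the promoter windows of Timm17b and Nsun4.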

How the data were processed

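RNA of pooled cardiac OFTs was sequenced as single-end reads from 1 HO and 1 WT library. After removal of adaptors and poor reads, the authors mapped to Rnor 6.0 with MapSplice and deposited raw counts per gene. How reads were counted, with which gene models and with or without strand, is not given in the sources used here, so overlapping and antisense genes cannot be told apart. The authors also deposited RPKM values, which equal the deposited counts after scaling by length and library total. They were used for levels between genes and to recover gene lengths.

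Library sizes were scaled by TMM in edgeR 4.0.16 (R 4.3.3), with an HO over WT ratio of 1.01. With 1 library per genotype no model of the spread could be fitted. Folds and exact Clopper-Pearson 95% intervals were computed in Python 3.11.15 with scipy 1.17.1. The rule was tested on simulated counts that held counting error only. That simulation therefore says nothing on variation between embryos, pools or libraries. Copies are genes with a LOC or RGD number whose BLAST symbol is that of a named gene. In lists, a library at 0 counts was set to 3. Alternatives were DESeq2 1.42.0 size factors, total counts, upper-quartile factors, lowess centring by abundance or length (statsmodels 0.14.6, span 0.3), other count minimums, 99% intervals and a 2-fold threshold.

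Members and lists were chosen with earlier results of these data known. Genes named are the members called, Romo1 and Nsun4, in each subfamily the 2 with the highest RPKM, the 2 highest and 2 lowest folds, members whose copies have at least 20 counts, those below the minimum, the gene with most counts of each list, and Snx17. Other genes named were chosen after their values were seen.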

Additional observations from a re-analysis of the deposited data

How the results depend on the processing

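No paired analysis was possible because each genotype has 1 library, and for the same reason no library could be left out. The depth limits single members. Those with fewer than 100 counts in both libraries together have wide intervals, and small shifts between libraries are not separated from counting error. Across the scalings, centrings and count minimums, the median log2 fold of the members ranged between 0.21 (centred by gene length) and 0.29 (DESeq2 size factors), and between 0.20 and 0.29 with copies added. The calls of Romo1 and Timm17b alone, and of Nsun4 and Mrpl36 summed, and of Nsun4 alone, held under each scaling, with 99% intervals and at a 2-fold threshold. With a minimum of 100 counts, 1 member, Romo1, was called higher alone and 0 with copies summed, since Nsun4 and Mrpl36 have fewer reads. Timm17b's call was lost when copies were summed, which left 0 members lower. With centring by gene length, 1 member summed with its copies had an interval below 1. Over all genes, 75 were called higher and 110 lower at a minimum of 100 counts, 73 and 117 with 99% intervals, and 42 and 57 at a 2-fold threshold, while 49 named genes lay opposite their copies with 99% intervals.

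Summed log2 folds moved to the edge of their narrow counting intervals or beyond with the scaling. With upper-quartile factors they were 0.22 for large subunit genes, alone and with copies, and 0.15 for small subunit genes, which have no copies. With centring by abundance the large subunit had 0.23 alone and with copies, and the small subunit 0.15 in the table with copies summed. With centring by gene length the large subunit had 0.20 alone and 0.19 with copies, the small subunit 0.12 in both tables, the inner membrane genes −0.036 alone and 0.054 with copies, and the outer membrane genes 0.20 in both tables.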

Other observations

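Genes that the symbols did not select, of the same families or listed by RefSeq as Mterf4, gave values of the same order. They are 10 genes with older, lower-case or numbered symbols. Among them, Mterfd2 (Mterf4) was already given beside Nsun4, and Ict1 is also one of the ribosomal proteins with other symbols above. Of the 10 genes, 6 had an interval above 1, none below 1, and none was called. Their median log2 fold was 0.27. LOC687295, listed by RefSeq as Timm50, the inner membrane receptor of the presequence translocase, had 969 counts in HO and 810 in WT (log2 fold 0.24, interval 0.11 to 0.38). LOC100360017, listed as Mrps6, had 261 counts in HO and 172 in WT (log2 fold 0.59, interval 0.30 to 0.87). The large subunit gene mrpl11 had 361 counts in HO and 270 in WT (log2 fold 0.40, interval 0.17 to 0.64), and mrpl9 had 737 in HO and 761 in WT (log2 fold −0.06, interval −0.21 to 0.09). RGD1559672, listed as Timm23b, had 135 counts in HO and 77 in WT (log2 fold 0.79, interval 0.38 to 1.22), which is the same direction as Timm23 and Timm23-ps8. These genes were chosen after their values were seen.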
